A study of Mus musculus with 9 samples.

Results

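The 8 genes described here encode catalytic subunits, regulatory subunits and 1 adaptor of the class I phosphoinositide 3-kinases (PI3-kinases), together with 1 lipid phosphatase that acts on their product. They are Pik3ca, Pik3cb, Pik3cd, Pik3cg, Pik3r1, Pik3r5, Pik3ap1 and Inpp5d. They were found as the probe sets whose platform annotation names exactly 1 gene and whose gene is one of these 8. That gave 24 of the 34945 probe sets with 1 gene, and all 8 members among the 18193 genes tested. Pik3ca and Pik3cd had 6 probe sets each, Pik3r1 had 4, Pik3cg, Pik3ap1 and Inpp5d had 2 each, and Pik3cb and Pik3r5 had 1 each.

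RNA was measured in 3 populations sorted from the marrow of normal C57BL/6 mice, an inbred strain, at 4 to 10 weeks of age and of either sex, with 3 Affymetrix arrays for each population. Neutrophils carried Gr1, an antigen of granulocytes, and Mac1, an integrin with an alpha chain from the gene Itgam, and lacked c-kit, the stem cell factor receptor. Mac1+ myeloblasts carried c-kit, Gr1 and Mac1, and Mac1- myeloblasts carried c-kit and Gr1 with Mac1 low or absent. Both c-kit+ populations had been sorted free of cells with B220, TER119, CD3, CD4, CD8 or IL7Rα. The labels name no treatment and no engineered allele, and they do not say how many mice stand behind an array or whether replicates came from separate mice, so p-values cover the spread among these arrays alone, and that spread may be technical.

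Class I PI3-kinases add a phosphate to a membrane lipid, PIP2, and so make PIP3, which draws proteins with lipid-binding domains to the inner face of the plasma membrane. Class IA enzymes pair a catalytic subunit, p110α (Pik3ca), p110β (Pik3cb) or p110δ (Pik3cd), with a regulatory subunit such as p85α (Pik3r1) that binds phosphorylated tyrosines. The class IB catalytic subunit p110γ (Pik3cg) pairs with p101 (Pik3r5) or p84 (Pik3r6) and is switched on by G-protein βγ subunits downstream of chemoattractant receptors. In neutrophils p110γ and p110δ are known for their part in chemotaxis and the oxidative burst. BCAP (Pik3ap1) is an adaptor that links receptors to class IA enzymes, and SHIP1 (Inpp5d) is a phosphatase of blood cells that removes a phosphate from PIP3 and limits the signal.

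The sort antigens followed the labels. Kit gave intensities of 94.9 to 331.4 in neutrophils, 3176 to 3470 in Mac1+ myeloblasts and 2998 to 3228 in Mac1- myeloblasts, and Itgam gave 2027 to 3675 in neutrophils, 694.9 to 919.8 in Mac1+ myeloblasts and 69.2 to 74.1 in Mac1- myeloblasts. Neutrophil array 1 stood apart from the other neutrophil arrays, with correlations of 0.940 and 0.926 against 0.986 between those. Its Mpo intensity, a primary granule gene, was 7132 against 1712 and 777.5 on neutrophil arrays 2 and 3. Values without it are given for Pik3ca, Pik3cb, Pik3cd, Pik3r1 and Inpp5d, whose differences it moved most. The summed intensity of 7 measured monocyte genes was 10352 to 17334 in neutrophils, 4594 to 5667 in Mac1+ myeloblasts and 30247 to 32177 in Mac1- myeloblasts, so it was higher in neutrophils than in Mac1+ myeloblasts, as several members were, and highest in Mac1- myeloblasts. Csf1r made up most of it in neutrophils, at 7112 to 12949 beside 484.9 to 714.9 in Mac1+ myeloblasts. Adgre1 was also higher in neutrophils (1940 to 2456 against 758.5 to 797.8). F13a1 was lower in neutrophils (818.7 to 1661) than in Mac1+ myeloblasts (1764 to 2990). Ccr2 overlapped, with 293.9 to 572.3 in neutrophils and 309.9 to 2426 in Mac1+ myeloblasts. The sum of 6 dendritic cell genes was 1757 to 2097 in neutrophils, 154.6 to 226.9 in Mac1+ myeloblasts and 280.6 to 299.4 in Mac1- myeloblasts, mostly Itgax and Cd74 in neutrophils, and Flt3 was at or below 1.57 there. That of 4 megakaryocyte genes was 574.7 to 696.6 in neutrophils, 314.4 to 401.1 in Mac1+ myeloblasts and 278.0 to 355.1 in Mac1- myeloblasts. Both of these sums were highest in neutrophils, as were Pik3ca, Pik3cg and Pik3r5, each called higher there than in either myeloblast population (below). Of the 4 megakaryocyte genes, only Itga2b lay above every myeloblast array on every neutrophil array. It gave 153.1 to 313.6 in neutrophils, 72.7 to 100.9 in Mac1+ myeloblasts and 124.8 to 147.4 in Mac1- myeloblasts. The sum of 7 B cell genes was 228.6 to 606.9 in neutrophils, 764.5 to 938.7 in Mac1+ myeloblasts and 1180 to 1400 in Mac1- myeloblasts. Cd79b made up most of it in myeloblasts, at 550.9 to 747.0 in Mac1+ and 934.3 to 1176 in Mac1- myeloblasts. It gave 59.2 to 79.2 in neutrophils. The other genes of that list were at or below 79.6 on every myeloblast array. The sum of 6 T and NK cell genes was 567.4 to 1091 in neutrophils, 10838 to 12046 in Mac1+ myeloblasts and 7721 to 8196 in Mac1- myeloblasts. Of this sum, Nkg7 alone gave 10680 to 11877 in Mac1+ myeloblasts. Of the T cell receptor genes in that list, Cd3d gave 356.8 to 484.3 in neutrophils, 43.1 to 51.0 in Mac1+ myeloblasts and 26.9 to 40.4 in Mac1- myeloblasts, while Cd3e and Cd3g stayed at or below 23.6 on every array. The part of other cells in the values below was not tested. Fewer cells of a type and less RNA per cell cannot be told apart in such bulk samples. With 3 arrays a population, precision is limited by their number.

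Most of these genes were higher in neutrophils than in Mac1- myeloblasts, and in that comparison the class IB pair Pik3cg and Pik3r5 had the smallest p-values. Against Mac1- myeloblasts, neutrophils had 6 of the 8 genes higher, 1 lower (Pik3cd) and 1 not past the test (Pik3r1). Against Mac1+ myeloblasts, neutrophils had 3 higher (Pik3ca, Pik3cg, Pik3r5), 1 lower (Pik3cd) and 4 not past the test. Mac1+ against Mac1- myeloblasts gave 3 higher (Pik3cb, Pik3r5, Pik3ap1), 0 lower and 5 not past the test, with 0 lower also at an unadjusted p under 0.05 by limma. Differences are of log2(intensity + 16), which understates the change of dim genes, for the probe set of each gene with the highest mean over all arrays. Calls are those of limma at an adjusted p under 0.05 (Benjamini-Hochberg over 18193 genes). The test called 52.6% of all genes for neutrophils against Mac1- myeloblasts (22.6% higher and 30.0% lower), 48.1% for neutrophils against Mac1+ myeloblasts (19.7% higher and 28.4% lower) and 11.8% for Mac1+ against Mac1- myeloblasts (6.31% higher and 5.51% lower). The median difference over the 8 genes was 1.35, 0.38 and 0.18 in these 3 comparisons, beside 0.05, 0.05 and -0.01 over all genes. Both comparisons of neutrophils use the same neutrophil arrays. The arrays of neutrophils and Mac1- myeloblasts did not overlap for 6 higher and 1 lower of the 8 genes (26.5% and 32.6% of all genes), those of neutrophils and Mac1+ myeloblasts for 4 higher and 0 lower (23.8% and 30.9%), and those of Mac1+ and Mac1- myeloblasts for 4 higher and 0 lower (19.8% and 20.1%). When every probe set was tested, 13 of the 24 probe sets were higher and 2 lower in neutrophils than in Mac1- myeloblasts, where 45.1% of all probe sets were called. In neutrophils against Mac1+ myeloblasts 9 were higher and 1 lower (40.8% called), and in Mac1+ against Mac1- myeloblasts 3 were higher and 0 lower (6.79% called). The Pik3cd calls rest on 1 of its 6 probe sets, whose values go against those of its other probe sets. With the next brightest Pik3cd probe set in its place, an alternative chosen after seeing the data, neutrophils had 7 higher and 0 lower against Mac1- myeloblasts, and 4 higher and 0 lower against Mac1+ myeloblasts.

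**Figure D1:**
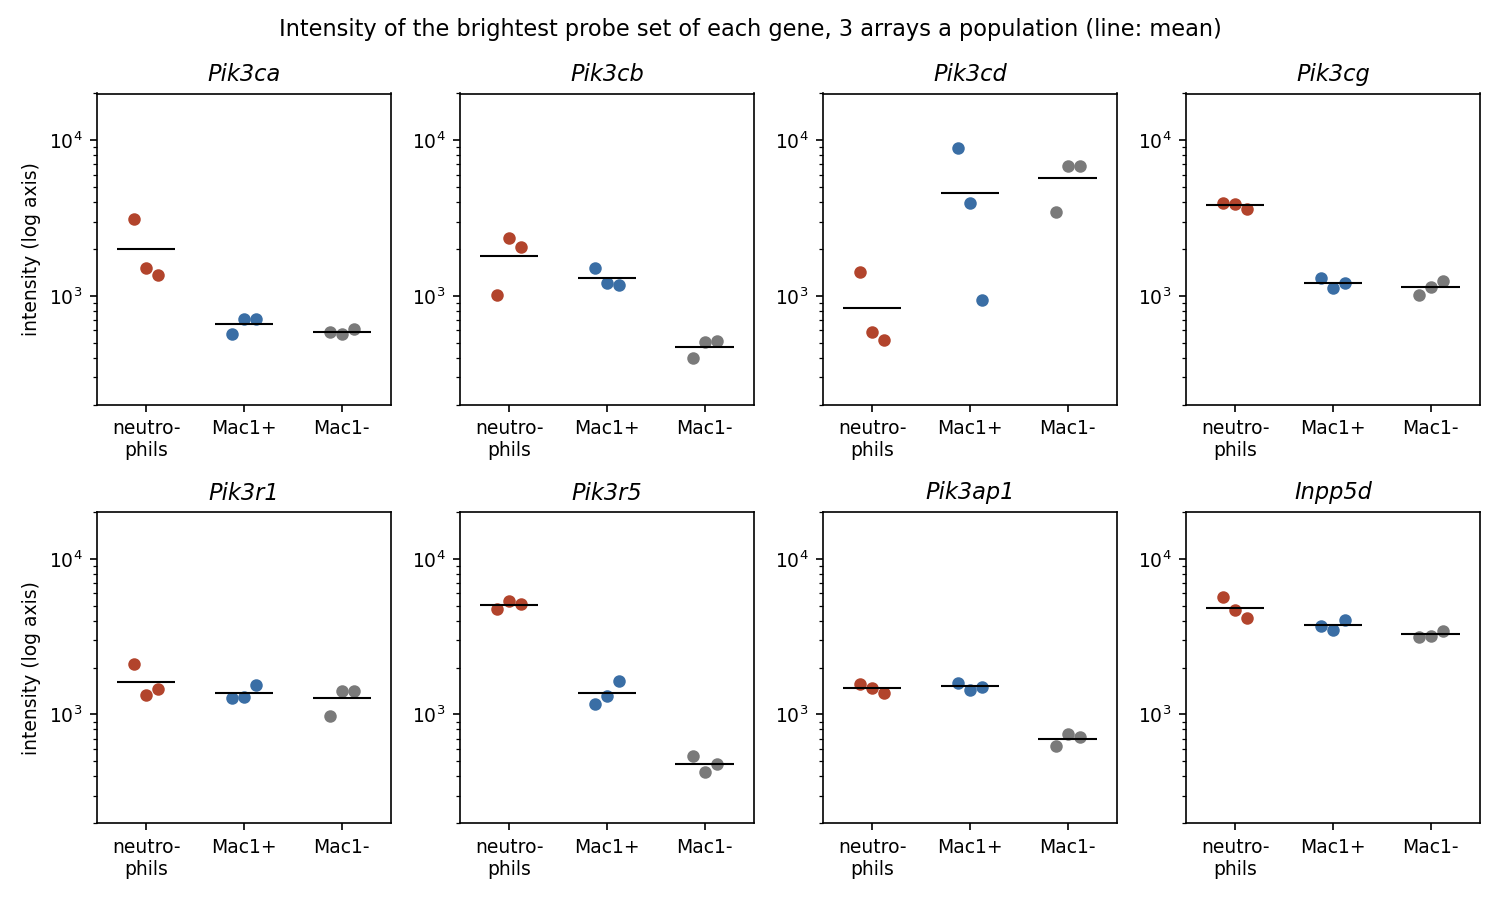
Intensity on each array (log axis) for the brightest probe set of the 8 genes, with neutrophils left, Mac1+ myeloblasts in the middle and Mac1- myeloblasts right; points are arrays and lines are means. Pik3r5 steps down across the 3 populations without overlap, Pik3cg is high on the 3 neutrophil arrays alone, and the Pik3cd points of Mac1+ myeloblasts spread between 942.7 and 8900.

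The class IB catalytic subunit was higher in neutrophils than in either myeloblast population. Pik3cg gave intensities of 3976, 3918 and 3595 in neutrophils, 1306, 1125 and 1219 in Mac1+ myeloblasts and 1017, 1141 and 1254 in Mac1- myeloblasts (arrays 1, 2 and 3 of each population, in this and all later lists). Every neutrophil array lay above every myeloblast array, and the myeloblast populations overlapped. Neutrophils were 3.12-fold higher than Mac1+ myeloblasts (log2 difference 1.64 ± 0.14, standard error, adjusted p = 1.10e-05, limma) and 3.34-fold higher than Mac1- myeloblasts (1.74 ± 0.14, adjusted p = 5.99e-06, limma). Mac1+ myeloblasts did not pass the test against Mac1- myeloblasts (0.10, 95% confidence interval -0.22 to 0.42, adjusted p = 0.834, limma). The other Pik3cg probe set was also called higher in neutrophils, by 1.67 against Mac1+ myeloblasts and by 2.09 against Mac1- myeloblasts. On that probe set Mac1+ and Mac1- myeloblasts did not overlap, with 927.7, 886.0 and 1103 in Mac1+ myeloblasts against 658.9, 736.8 and 764.8 in Mac1- myeloblasts, and the difference did not pass the test (0.42 ± 0.18, adjusted p = 0.273, limma).

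Pik3r5, the regulatory subunit that couples p110γ to βγ subunits, had the largest difference of the 8 genes between neutrophils and Mac1- myeloblasts and was the only one of them called in all 3 comparisons. Its intensities were 4754, 5353 and 5088 in neutrophils, 1159, 1314 and 1629 in Mac1+ myeloblasts and 544.2, 424.0 and 477.6 in Mac1- myeloblasts. The populations did not overlap, and their order was neutrophils, Mac1+ myeloblasts, Mac1- myeloblasts. Neutrophils were 10.2-fold higher than Mac1- myeloblasts (3.36 ± 0.17, adjusted p = 3.02e-07, limma) and 3.71-fold higher than Mac1+ myeloblasts (1.89 ± 0.17, adjusted p = 1.48e-05, limma). Mac1+ myeloblasts were 2.77-fold higher than Mac1- myeloblasts (1.47 ± 0.17, adjusted p = 5.38e-04, limma).

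Pik3r6, the other class IB regulatory subunit and the neighbouring protein-coding gene of Pik3r5 on chromosome 11, is not among the 8 genes. It gave 5706, 4403 and 3907 in neutrophils, 1343, 1218 and 1262 in Mac1+ myeloblasts and 1695, 1502 and 1648 in Mac1- myeloblasts. It was 3.59-fold higher in neutrophils than in Mac1+ myeloblasts (1.84 ± 0.17, adjusted p = 1.53e-05, limma) and 2.84-fold higher than in Mac1- myeloblasts (1.51 ± 0.17, adjusted p = 4.87e-05, limma). Unlike those of Pik3r5, its values in Mac1+ myeloblasts lay below those in Mac1- myeloblasts, without a call on this probe set. Its other probe set was called lower in Mac1+ than in Mac1- myeloblasts when every probe set was tested.

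**Figure D2:**
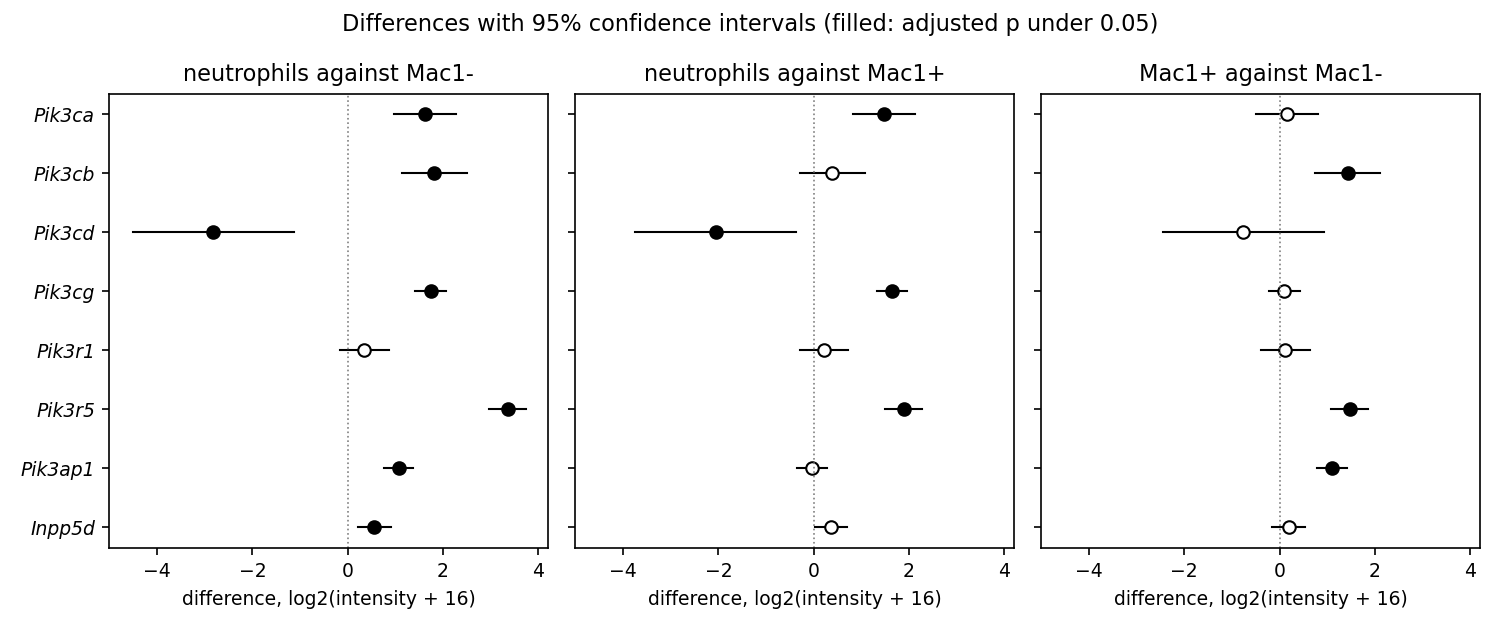
Difference of log2(intensity + 16) with its 95% confidence interval for each of the 8 genes, in neutrophils against Mac1- myeloblasts (left), neutrophils against Mac1+ myeloblasts (middle) and Mac1+ against Mac1- myeloblasts (right); filled points had an adjusted p under 0.05. Pik3r5 is filled in all 3 panels, and Pik3cd has the widest intervals, from -4.51 to -1.13 in the left panel.

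Among the class IA catalytic subunits, Pik3ca, which encodes the widely expressed p110α, was higher in neutrophils on 3 of its 6 probe sets. The brightest gave 3108, 1507 and 1362 in neutrophils, 567.3, 709.0 and 713.7 in Mac1+ myeloblasts and 582.7, 571.9 and 611.2 in Mac1- myeloblasts. All neutrophil arrays were above all myeloblast arrays, and neutrophil array 1 was the highest of them. The difference was 1.47 ± 0.29 against Mac1+ myeloblasts (adjusted p = 0.00227, limma) and 1.63 ± 0.29 against Mac1- myeloblasts (adjusted p = 0.00104, limma). Without neutrophil array 1 it was 1.10 (adjusted p = 1.59e-04, limma) and 1.26 (adjusted p = 5.71e-05, limma). The myeloblast populations overlapped and did not pass the test against each other (0.16, 95% confidence interval -0.49 to 0.81). The other 3 probe sets gave differences of 0.20 to 0.33 between neutrophils and Mac1- myeloblasts and were not called. Their intensities over all arrays were 117.6 to 297.4, 125.3 to 263.9 and 5.36 to 21.9.

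Pik3cb, which encodes p110β, an isoform that βγ subunits can also stimulate, was lowest in Mac1- myeloblasts. Its 1 probe set gave 1007, 2358 and 2061 in neutrophils, 1511, 1213 and 1177 in Mac1+ myeloblasts and 400.9, 502.2 and 511.8 in Mac1- myeloblasts. Mac1- myeloblasts lay below the other populations on every array, and neutrophil array 1 lay below all Mac1+ arrays. Neutrophils were 3.54-fold higher than Mac1- myeloblasts (1.82 ± 0.30, adjusted p = 6.77e-04, limma). Mac1+ myeloblasts were 2.70-fold higher than Mac1- myeloblasts (1.43 ± 0.30, adjusted p = 0.0139, limma). This call was lost without Mac1+ array 1 (1.32, adjusted p = 0.0623, limma) and without Mac1- array 1 (1.32, adjusted p = 0.0640, limma). Neutrophils did not pass the test against Mac1+ myeloblasts (0.39 ± 0.30, adjusted p = 0.314, limma) and passed it without neutrophil array 1 (0.76, adjusted p = 0.00429, limma).

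The probe sets of Pik3cd, which encodes the leukocyte isoform p110δ, went in opposite directions. The brightest, 1443798_at, gave 1418, 588.2 and 519.9 in neutrophils, 8900, 3939 and 942.7 in Mac1+ myeloblasts and 3476, 6887 and 6793 in Mac1- myeloblasts. Neutrophils lay below every Mac1- array, and they overlapped Mac1+ myeloblasts through neutrophil array 1 and Mac1+ array 3. The difference was -2.82 ± 0.74 against Mac1- myeloblasts (adjusted p = 0.0107, limma) and -2.06 ± 0.74 against Mac1+ myeloblasts (adjusted p = 0.0468, limma). The call against Mac1+ myeloblasts was lost when any array other than neutrophil array 1 or Mac1+ array 3 was left out, most of all without Mac1+ array 1 (-1.33, adjusted p = 0.151, limma). Without neutrophil array 1 the differences were -3.27 against Mac1- myeloblasts and -2.51 against Mac1+ myeloblasts (adjusted p = 0.00775 and 0.0285, limma). Over the 3 Mac1+ arrays this probe set ranged by 3.22 on the log2 scale, more than 99.9% of probe sets, whose median range was 0.36.

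The next brightest, 1453281_at, gave 2850, 4262 and 4242 in neutrophils, 1933, 1972 and 2575 in Mac1+ myeloblasts and 1798, 1430 and 1710 in Mac1- myeloblasts. Here neutrophils lay above all other arrays, by 0.79 ± 0.21 against Mac1+ myeloblasts (adjusted p = 0.0113, limma) and by 1.18 ± 0.21 against Mac1- myeloblasts (adjusted p = 0.00107, limma). Over the 9 arrays its log2 values correlated with those of 1443798_at at r = -0.927, a description of arrays that share 3 populations. A dimmer probe set, 1446770_at, gave 568.2, 541.1 and 368.1 in neutrophils, 108.4, 141.7 and 114.5 in Mac1+ myeloblasts and 61.9, 73.9 and 77.3 in Mac1- myeloblasts, and was called higher in neutrophils in both comparisons when every probe set was tested. The other 3 probe sets were not called. On 1422992_s_at neutrophil array 1 gave 79.1 against 683.8 and 948.2 on neutrophil arrays 2 and 3. In all, 2 of 6 Pik3cd probe sets were higher in neutrophils than in Mac1- myeloblasts and 1 was lower, so no single direction can be given for Pik3cd.

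**Figure D3:**
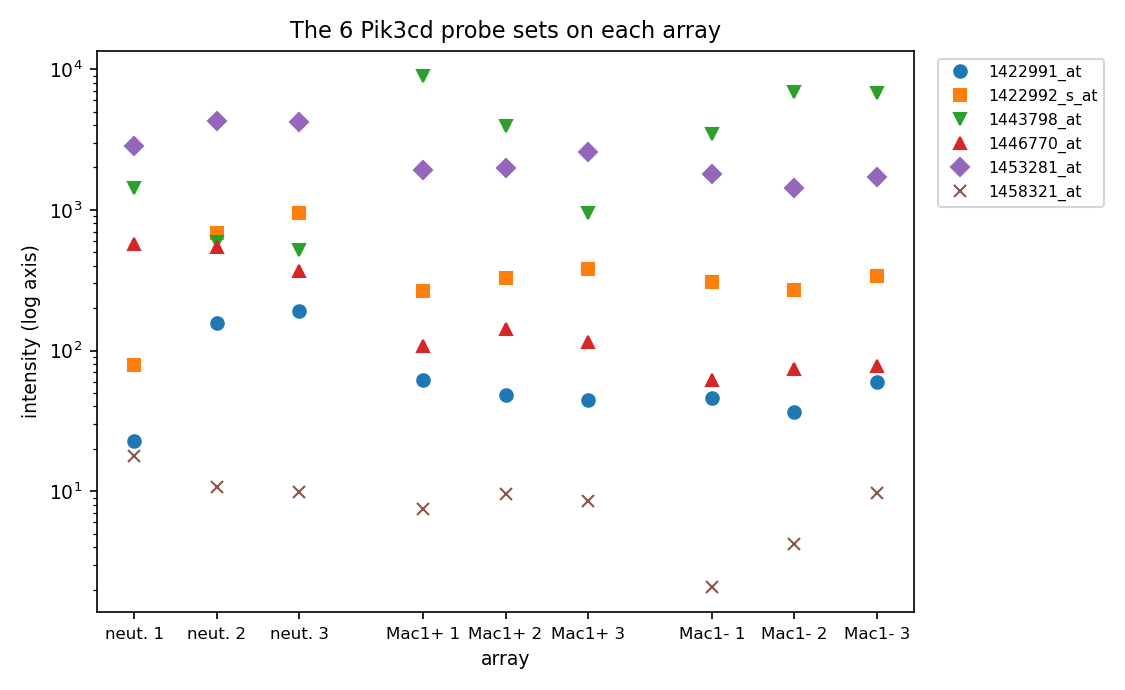
Intensity (log axis) of the 6 Pik3cd probe sets on each of the 9 arrays, neutrophils left, Mac1+ myeloblasts in the middle and Mac1- myeloblasts right. The probe set 1443798_at drops to 519.9 in neutrophils and spreads widely over the Mac1+ arrays, while 1453281_at is highest in neutrophils.

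The 3 genes whose pattern over the 9 arrays was nearest to that of 1443798_at were Cxcl1 (r = 0.998), Fancl (r = 0.994) and Aph1a (r = 0.994), out of 9088 candidate genes. They encode a neutrophil chemokine, a ubiquitin ligase of DNA repair and a subunit of the γ-secretase protease. Their values on the Mac1+ arrays ranked as those of Pik3cd, with 3077, 1243 and 280.0 for Cxcl1. Other probe sets of the same genes were less like it: they correlated with 1443798_at at -0.621 and 0.080 for Cxcl1 and at -0.160 for Fancl, and at -0.220 and 0.820 for Aph1a.

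Pik3r1, the p85α regulatory subunit that stabilises class IA catalytic subunits, was the member with no call on its brightest probe set. That probe set gave 2107, 1324 and 1448 in neutrophils, 1269, 1300 and 1539 in Mac1+ myeloblasts and 972.2, 1415 and 1419 in Mac1- myeloblasts. All 3 populations overlapped. The difference was 0.35 against Mac1- myeloblasts (95% confidence interval -0.17 to 0.86, adjusted p = 0.231, limma) and 0.22 against Mac1+ myeloblasts (95% confidence interval -0.29 to 0.73, adjusted p = 0.450, limma). Without neutrophil array 1 they were 0.15 and 0.02. Its other probe sets disagreed. When every probe set was tested, 1451737_at was higher in neutrophils than in Mac1- myeloblasts (1.41 ± 0.31, adjusted p = 0.00498, limma) and 1425514_at was lower (-0.87 ± 0.28, adjusted p = 0.0323, limma). The intensities of 1451737_at were 921.5, 409.2 and 387.7 in neutrophils, 210.5, 172.1 and 207.6 in Mac1+ myeloblasts and 156.4, 220.2 and 195.4 in Mac1- myeloblasts. Those of 1425514_at were 171.1, 287.1 and 409.8 in neutrophils, 606.0, 528.3 and 523.1 in Mac1+ myeloblasts and 427.2, 597.8 and 530.3 in Mac1- myeloblasts. Neutrophil array 1 held the highest value of its population on one of them and the lowest on the other. Which transcripts of Pik3r1 each probe set reads was not analysed here.

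**Figure D4:**
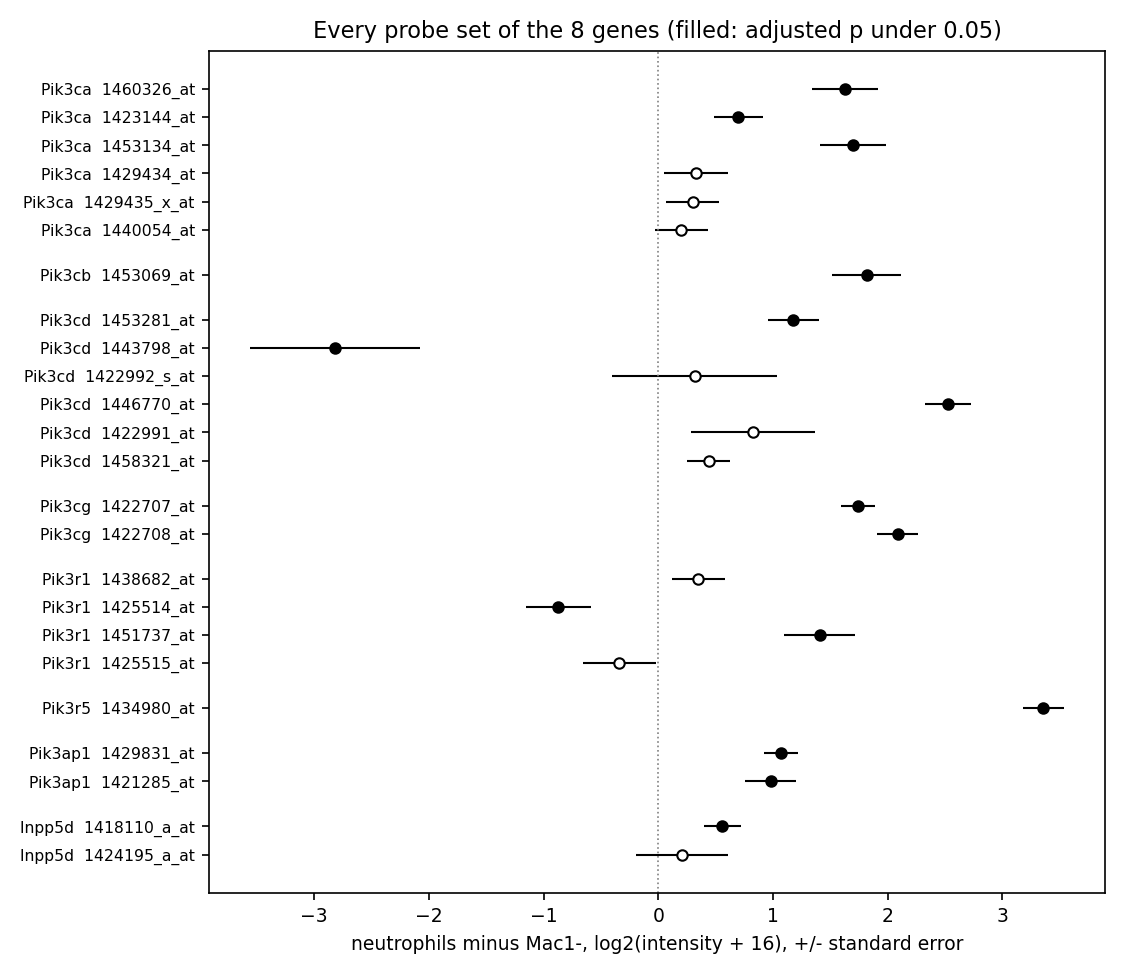
Difference between neutrophils and Mac1- myeloblasts of log2(intensity + 16), with its standard error, for each of the 24 probe sets of the 8 genes when every probe set on the arrays was tested; filled points had an adjusted p under 0.05. Pik3cd and Pik3r1 have filled points on both sides of 0, and every other gene has filled points on the right only.

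Pik3ap1, the adaptor BCAP, was higher in neutrophils and in Mac1+ myeloblasts than in Mac1- myeloblasts. Its intensities were 1566, 1489 and 1377 in neutrophils, 1603, 1437 and 1497 in Mac1+ myeloblasts and 625.5, 746.6 and 718.0 in Mac1- myeloblasts. Neutrophils and Mac1+ myeloblasts overlapped, with a difference of -0.03 (95% confidence interval -0.35 to 0.28), whose sign turned to 0.22 under quantile normalization without passing the test. Neutrophils were 2.10-fold higher than Mac1- myeloblasts (1.07 ± 0.14, adjusted p = 1.32e-04, limma), and Mac1+ myeloblasts were 2.15-fold higher than Mac1- myeloblasts (1.10 ± 0.14, adjusted p = 8.33e-04, limma). Its other probe set was dimmer, at 37.2 to 116.0 over all arrays, and was called higher in neutrophils than in Mac1- myeloblasts (0.98 ± 0.22, adjusted p = 0.00545, limma). On that probe set Mac1+ myeloblasts did not pass the test against Mac1- myeloblasts (0.74 ± 0.22, adjusted p = 0.0988, limma).

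Inpp5d, which encodes SHIP1, had small differences in the same order of populations as Pik3r5. Its intensities were 5649, 4722 and 4191 in neutrophils, 3727, 3472 and 4030 in Mac1+ myeloblasts and 3155, 3213 and 3445 in Mac1- myeloblasts. The populations did not overlap. Neutrophils were 1.47-fold higher than Mac1- myeloblasts (0.56 ± 0.15, adjusted p = 0.0130, limma). The step between neutrophils and Mac1+ myeloblasts did not pass the test (0.37, 95% confidence interval 0.02 to 0.71, adjusted p = 0.0789, limma), but it passed under quantile normalization (0.56, adjusted p = 0.00339, limma). Without neutrophil array 1 the difference was 0.44 against Mac1- myeloblasts (adjusted p = 0.0122, limma) and 0.25 against Mac1+ myeloblasts (adjusted p = 0.113, limma). The step between the myeloblast populations did not pass either (0.19, 95% confidence interval -0.16 to 0.54, adjusted p = 0.603, limma). The other Inpp5d probe set was not called and ranged from 362.8 to 1107 over the Mac1+ arrays, and the mean of both probe sets gave 0.38 between neutrophils and Mac1- myeloblasts (adjusted p = 0.181, limma).

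Promoter windows are shown for the class IB pair and for the adaptor and the phosphatase, 4 of the genes called higher in neutrophils than in Mac1- myeloblasts, to set their start sites side by side. The windows run from 250 bases before to 50 after a start site and were taken from RefSeq on GRCm38.p6. Capitals mark matches on either strand to GAGGAAG (the PU.1-like ETS motif), CACGTG (the Myc E-box) or TGTTTAC (a Foxo motif), and a match on the other strand appears as the reverse complement of these letters. Pik3cg lies at chr12:32208421-32208720 on the minus strand, Pik3r5 at chr11:68431875-68432174 on the plus strand, Pik3ap1 at chr19:41385053-41385352 on the minus strand and Inpp5d at chr1:87620062-87620361 on the plus strand.
Pik3cg: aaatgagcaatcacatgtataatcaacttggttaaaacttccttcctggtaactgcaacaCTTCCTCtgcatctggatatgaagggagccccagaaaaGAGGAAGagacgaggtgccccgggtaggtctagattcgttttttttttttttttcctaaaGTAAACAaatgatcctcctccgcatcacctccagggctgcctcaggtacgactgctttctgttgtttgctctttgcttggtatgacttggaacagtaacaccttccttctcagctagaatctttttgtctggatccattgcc
Pik3r5: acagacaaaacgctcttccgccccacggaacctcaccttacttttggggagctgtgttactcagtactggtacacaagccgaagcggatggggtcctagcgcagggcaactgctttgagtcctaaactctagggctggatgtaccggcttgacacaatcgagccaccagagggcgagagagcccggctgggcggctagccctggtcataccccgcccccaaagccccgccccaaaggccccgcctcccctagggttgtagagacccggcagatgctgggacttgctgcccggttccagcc
Pik3ap1: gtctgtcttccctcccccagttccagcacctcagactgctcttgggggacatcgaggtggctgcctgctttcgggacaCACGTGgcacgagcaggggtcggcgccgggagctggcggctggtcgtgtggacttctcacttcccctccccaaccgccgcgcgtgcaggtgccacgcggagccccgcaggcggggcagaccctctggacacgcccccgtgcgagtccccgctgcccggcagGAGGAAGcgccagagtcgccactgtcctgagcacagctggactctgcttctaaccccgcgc
Inpp5d: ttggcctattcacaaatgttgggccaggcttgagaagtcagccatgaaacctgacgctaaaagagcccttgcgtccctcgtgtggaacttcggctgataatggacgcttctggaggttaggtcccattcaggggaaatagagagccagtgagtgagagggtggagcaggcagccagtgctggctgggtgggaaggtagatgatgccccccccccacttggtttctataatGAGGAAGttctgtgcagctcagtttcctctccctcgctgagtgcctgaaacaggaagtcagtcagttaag
All 8 genes had windows in the table, 12 in all. The motif GAGGAAG was found in 4 of these 12 windows, in 2 overlapping ones of Pik3cg and in 1 each of Pik3ap1 and Inpp5d, and in 13.6% of all 32851 promoters. The printed Pik3cg window holds it at 190 and 152 bases before the start site, the Pik3ap1 window 11 bases before it and the Inpp5d window 20 bases before it. The Myc E-box was found in 1 of the 12 windows, that of Pik3ap1, beside 7.15% of all promoters, and TGTTTAC in 1, of Pik3cg, beside 3.65%. The C/EBP motif TTGCNNAA was in 0 of the 12 windows and in 10.8% of all promoters, and the Pik3r5 window held none of the 4 motifs searched. None of these motifs overlapped another in the printed windows.

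Whether the 4 catalytic subunits changed by the same amount was tested as the gap between 2 of them within each array. The gap between Pik3cg and Pik3ca was 1.04 ± 0.59 in neutrophils, 0.86 ± 0.28 in Mac1+ myeloblasts and 0.93 ± 0.12 in Mac1- myeloblasts (SD, n = 3 each), and no difference among the 3 populations was detected (exact permutation test over 9 arrays, p = 0.893, the smallest it allows being 0.00357). The gap between Pik3cg and Pik3cb was 1.16 ± 0.69 in neutrophils, -0.09 ± 0.13 in Mac1+ myeloblasts and 1.25 ± 0.08 in Mac1- myeloblasts (SD, n = 3 each, exact permutation p = 0.0357, adjusted over 6 pairs 0.0536). After adjustment over the 6 pairs none was below 0.05: the 3 pairs with Pik3cd on its brightest probe set had an adjusted exact permutation p of 0.05. Under quantile normalization these 3 pairs and Pik3cg with Pik3cb had an adjusted exact permutation p of 0.0375.

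Other genes with patterns close to those of the members were taken by the smallest root mean square difference of centred log2 values over the 9 arrays, among 9088 genes. For Pik3cg they were 4931408D14Rik, Herc4, a ubiquitin ligase, and Satb1, a chromatin organiser, at 0.08 to 0.10. For Pik3r5 they were Tbc1d10c, Ssh2, a phosphatase that activates cofilin, and Pdlim2, at 0.13 to 0.15. For Pik3ap1 they were Cd37, a leukocyte tetraspanin, Cyfip2, a subunit of the WAVE complex of actin assembly, and Lonrf1, each at 0.08. Inpp5d was nearest to Epc1, Nisch and Fkbp5, Pik3ca to Evi5, Rbm25 and Mblac2, Pik3cb to Golim4, Ccdc125 and Inpp1, and Pik3r1 to Pcnx3, Mknk2 and Eif4ebp2. Among the members the closest pair was Pik3r1 and Inpp5d at 0.19, with r = 0.750 over 9 arrays. Both differed little between populations, which keeps this measure small. Pik3ca and Pik3cg stood at 0.32, with r = 0.919 over 9 arrays. The highest r among the members was 0.938, for Pik3ca and Inpp5d.

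The rest of the pathway was followed in 7 lists of 128 measured genes. Their counts are to be read beside the shares of all genes called higher and lower. These were 22.6% and 30.0% for neutrophils against Mac1- myeloblasts and 19.7% and 28.4% for neutrophils against Mac1+ myeloblasts. For Mac1+ against Mac1- myeloblasts they were 6.31% and 5.51%. Counts for Mac1+ against Mac1- myeloblasts depended on single arrays: over all lists 23 genes were higher and 12 lower in Mac1+ myeloblasts, with 40 and 21 without neutrophil array 1, and 13 to 15 higher without any 1 Mac1+ array or without Mac1- array 2 or 3. The first list held 9 measured genes: other class I regulatory subunits, docking proteins and the interacting protein Pik3ip1. Of these, 6 were higher and 2 lower (Pik3ip1 and Gab1) in neutrophils than in Mac1- myeloblasts, with a median difference of 1.01 beside 0.05 over all genes. Against Mac1+ myeloblasts, 4 were higher and 1 lower in neutrophils. Gab2 and Gab3, docking proteins that recruit p85, were higher in neutrophils than in Mac1- myeloblasts by 1.10 ± 0.16 and 3.32 ± 0.33 (adjusted p = 2.53e-04 and 2.21e-05, limma). Mac1+ against Mac1- myeloblasts gave 2 higher, Irs2 (1.69 ± 0.25, adjusted p = 0.00240, limma) and Gab3 (1.60 ± 0.33, adjusted p = 0.0122, limma), and 0 lower by limma, where 2 were lower at an unadjusted p under 0.05. The Gab3 call was lost without Mac1+ array 2 or without Mac1- array 2 or 3, with differences of 1.48 to 1.54 and adjusted p up to 0.0588.

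Of 7 genes of class II PI3-kinases and of the class III complex, which make other phosphoinositides, 0 were called between the myeloblast populations by limma, also at an unadjusted p under 0.05. Neutrophils had 2 higher and 1 lower against Mac1- myeloblasts. Pik3c2a, a class II enzyme, was higher by 1.27 ± 0.32 (adjusted p = 0.00771, limma) and Becn1 by 0.53 ± 0.15 (adjusted p = 0.0143, limma). The Becn1 call was lost without Mac1- array 1 with the difference near its size (0.50, adjusted p = 0.0503, limma), under median centring of arrays (0.37, adjusted p = 0.186, limma) and with the mean of probe sets (0.24, adjusted p = 0.167, limma), and another Becn1 probe set was called lower. Atg14, which directs the class III complex to autophagy, was lower by 2.12 on the log2 scale (-2.12 ± 0.28, adjusted p = 1.50e-04, limma), with 28.2, 70.9 and 78.8 in neutrophils against 295.9, 306.0 and 283.2 in Mac1- myeloblasts.

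Of 26 phosphatases of phosphoinositides other than SHIP1, 10 were higher and 7 lower in neutrophils than in Mac1- myeloblasts. The inositol phosphatase gene Inpp5a was higher by 2.68 ± 0.19 (adjusted p = 2.57e-06, limma), with 1665, 2462 and 2409 in neutrophils against 267.3, 348.6 and 352.6 in Mac1- myeloblasts. Genes of the myotubularin family, most of which remove the phosphate at position 3 of endosomal lipids, went both ways, with 4 higher (Mtmr3, Mtmr6, Mtmr12 and Mtmr14, named after their values were seen) and 4 lower, among them Mtmr2 at -2.56 ± 0.17 (adjusted p = 1.91e-06, limma) and Mtm1 at -3.19 ± 0.64 (adjusted p = 0.00236, limma). When every probe set was tested, 1 of 2 Mtmr2 probe sets and 1 of 3 Mtm1 probe sets were called lower. Mtm1 gave 2833, 562.9 and 316.5 in neutrophils. Ocrl, a phosphatase of PIP2, was lower in neutrophils than in Mac1+ myeloblasts by the largest amount of the list (-3.25 ± 0.28, adjusted p = 1.06e-05, limma), with 70.6, 141.4 and 182.3 in neutrophils against 1217, 1248 and 1477 in Mac1+ myeloblasts. Against Mac1+ myeloblasts 7 of the 26 were higher and 5 lower. Between the myeloblast populations 5 were higher and 3 lower in Mac1+ myeloblasts, among them Inppl1, which encodes the SHIP1 relative SHIP2 (-1.12 ± 0.18, adjusted p = 0.00323, limma). Inppl1 was dim, with 24.2, 27.9 and 29.2 in Mac1+ myeloblasts and 83.6, 83.2 and 66.8 in Mac1- myeloblasts, below the median gene at 109.5.

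Of 11 kinases that make PIP2 and its precursors, 6 were higher and 3 lower in neutrophils than in Mac1- myeloblasts, and 7 were higher and 3 lower in neutrophils than in Mac1+ myeloblasts. Pi4k2a was the 1 call between the myeloblast populations, lower in Mac1+ myeloblasts (-1.04 ± 0.20, adjusted p = 0.00844, limma), and was higher in neutrophils than in Mac1+ myeloblasts (1.48 ± 0.20, adjusted p = 1.94e-04, limma). Its relative Pi4k2b was lower in neutrophils against both myeloblast populations on all 3 of its probe sets. Pip5k1b was lower in neutrophils than in Mac1- myeloblasts on its brightest probe set (-2.94 ± 0.74, adjusted p = 0.00832, limma), while 2 of its 3 probe sets were higher and the mean of all gave 0.23. That brightest probe set gave 3600, 1630 and 345.5 on the Mac1+ arrays, which ranked as on 1443798_at of Pik3cd.

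Of 20 G-protein subunits, Ras proteins and partners of SHIP1, 9 were higher and 4 lower in neutrophils than in Mac1- myeloblasts, and 6 were higher and 5 lower in neutrophils than in Mac1+ myeloblasts. Gng2, a gamma subunit, was lowest in Mac1+ myeloblasts, with 674.7, 1806 and 1618 in neutrophils, 102.6, 138.9 and 146.7 in Mac1+ myeloblasts and 728.8, 889.4 and 867.3 in Mac1- myeloblasts. It was higher in neutrophils than in Mac1+ myeloblasts (3.14 ± 0.34, adjusted p = 5.26e-05, limma) and lower in Mac1+ than in Mac1- myeloblasts (-2.55 ± 0.34, adjusted p = 0.00126, limma). The adaptors Dok2 and Dok3, which bind SHIP1, were higher in neutrophils than in Mac1- myeloblasts by 1.76 ± 0.15 and 1.67 ± 0.16 (adjusted p = 7.88e-06 and 1.77e-05, limma). Fcgr2b, the inhibitory Fc receptor that recruits SHIP1, was lower in neutrophils than in Mac1+ myeloblasts (-1.24 ± 0.18, adjusted p = 3.51e-04, limma). Between the myeloblast populations 6 were higher and 1 lower in Mac1+ myeloblasts.

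Effectors of PIP3, proteins that bind it or act just downstream, were called higher more often than lower in each comparison. Of 30 measured, 18 were higher and 4 lower in neutrophils than in Mac1- myeloblasts (median difference 0.70 beside 0.05 over all genes), 12 were higher and 4 lower in neutrophils than in Mac1+ myeloblasts, and 8 were higher and 4 lower in Mac1+ than in Mac1- myeloblasts. The shares of all genes higher and lower were 22.6% and 30.0%, 19.7% and 28.4%, and 6.31% and 5.51%. All genes thus also leaned higher in Mac1+ against Mac1- myeloblasts, where list counts depended on single arrays. Bmx, a kinase of the Tec family, gave 4283, 4304 and 3866 in neutrophils, 57.7, 42.0 and 58.5 in Mac1+ myeloblasts and 269.1, 197.4 and 315.5 in Mac1- myeloblasts. Prex1, an exchange factor for Rac that PIP3 and βγ subunits activate together, gave 7870, 6184 and 5711 in neutrophils, 464.9, 471.0 and 575.9 in Mac1+ myeloblasts and 1545, 1668 and 1793 in Mac1- myeloblasts. Both were lowest in Mac1+ myeloblasts, and neutrophils exceeded these by 5.93 ± 0.19 for Bmx and 3.66 ± 0.17 for Prex1 (adjusted p = 5.31e-08 and 2.63e-07, limma). Arap3, a GTPase-activating protein for Arf6 and RhoA, followed the order of Pik3r5 instead, with 7539, 6900 and 6264 in neutrophils, 1950, 2166 and 1961 in Mac1+ myeloblasts and 287.3, 296.6 and 311.5 in Mac1- myeloblasts. All 3 of its probe sets were called higher in every comparison. Vav2 and Plcg1 were lower in neutrophils than in Mac1- myeloblasts on their brightest probe sets, Vav2 at -3.35 ± 0.21 and Plcg1 at -2.93 ± 0.25 (adjusted p = 1.16e-06 and 8.19e-06, limma). When every probe set was tested, 2 of 3 Vav2 probe sets and 1 of 3 Plcg1 probe sets were called lower, and their others were not called.

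Of 25 genes of the Akt and mTOR branch, 8 were higher and 6 lower in neutrophils than in Mac1- myeloblasts, and likewise 8 and 6 in neutrophils against Mac1+ myeloblasts. Sgk1, a kinase related to Akt, gave 6197, 5185 and 5149 in neutrophils, 803.7, 872.0 and 726.0 in Mac1+ myeloblasts and 233.1, 231.7 and 235.4 in Mac1- myeloblasts, a difference of 4.46 ± 0.14 between neutrophils and Mac1- myeloblasts (adjusted p = 3.25e-08, limma). Sesn2, a stress-induced inhibitor of mTOR complex 1, was 4.56 ± 0.37 higher in the same comparison (adjusted p = 5.91e-06, limma), on both of its probe sets. Phlpp2, a phosphatase that acts on Akt, was lower on its brightest probe set (-4.80 ± 0.17, adjusted p = 4.67e-08, limma), and its other probe set was not called. Mac1+ against Mac1- myeloblasts gave 2 higher, Sgk1 and Mlst8, and 3 lower.

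**Figure D5:**
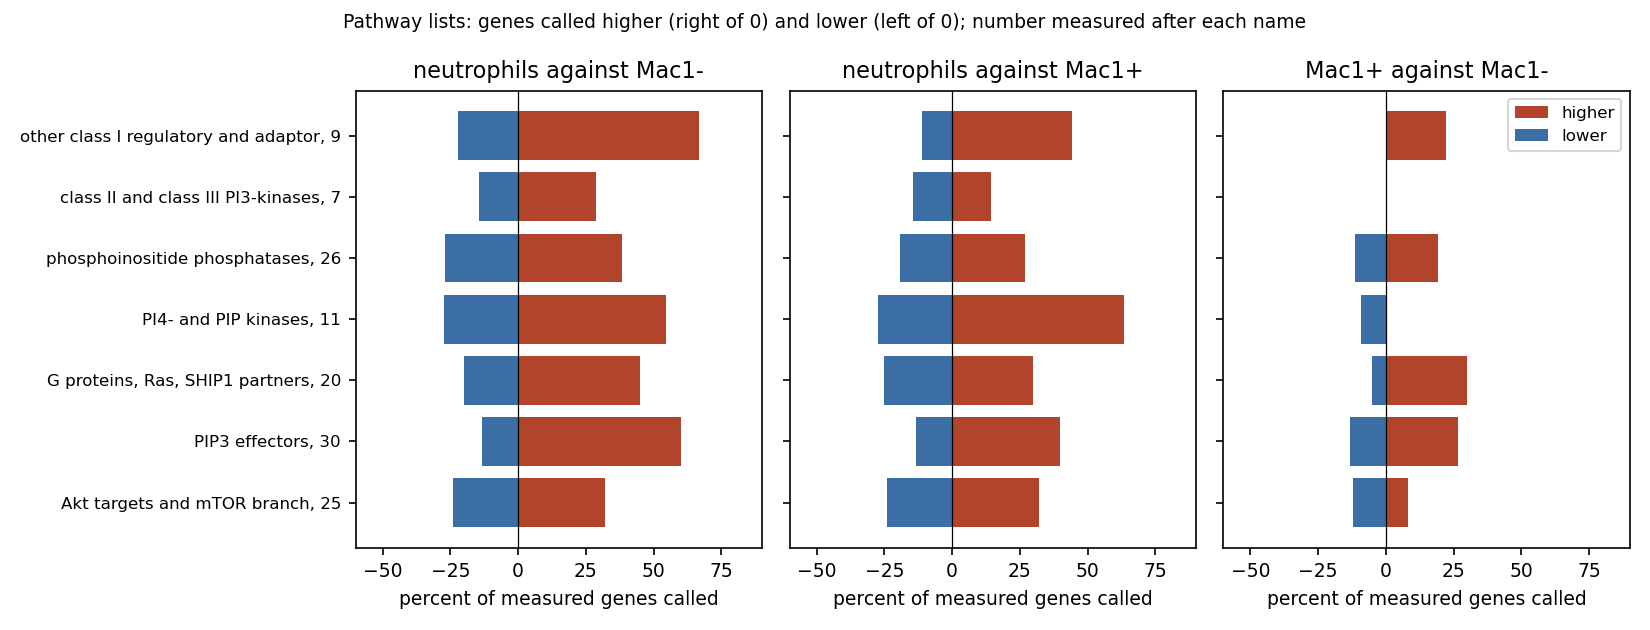
Share of the measured genes of 7 pathway lists called higher (right of 0) or lower (left of 0) in neutrophils against Mac1- myeloblasts (left), neutrophils against Mac1+ myeloblasts (middle) and Mac1+ against Mac1- myeloblasts (right); the number after each name is the number of genes measured. In the left panel 18 of 30 PIP3 effectors are called higher and 4 lower, beside 22.6% and 30.0% of all genes.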

How the data were processed

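The authors deposited 1 linear intensity for each of 45101 probe sets on each of 9 Affymetrix arrays. Per the labels' protocols, RNA was purified on columns, then amplified over 2 cycles and biotin-labelled, and amplification favours 3′ ends. The sources used here do not name the software behind the summarised and scaled intensities. Values were used as deposited.

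Probe sets were named by the platform annotation: 34945 name 1 gene, 932 several and 9160 none, and 64 are controls. By gene ID 99.4% of the first matched a RefSeq table of GRCm38.p6, with 0 symbols changed. Each gene was read from its probe set with the highest mean, and log2(intensity + 16) was fitted by limma 3.58.1 under R 4.3.3 as 1 model of 3 populations, Benjamini-Hochberg over 18193 genes. The procedure was tested on simulated data. Gaps between catalytic subunits were tested by exact permutation over arrays.

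The genes named are all members, up to 3 called genes of each pathway list per comparison with the largest absolute difference (where none was called, the 1 with the smallest p), and the 3 nearest patterns of each member. The members and lists were chosen with earlier results of these data known. Plcg1 against Mac1- myeloblasts was added after its value was seen. Alternatives are given in the closing section.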

Additional observations from a re-analysis of the deposited data

How the results depend on the processing

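Calls of Pik3cg, Pik3r5, Pik3ap1 and Pik3ca held in direction and side of the threshold under every alternative tried (quantile normalization, median centring of arrays, an offset of 1 or 64, no genes below percentile 40, averaged probe sets, no probe sets marked x or s, every probe set by itself, a trended and robust prior, only the 2 populations compared, a replicate block, and leaving out each array). With centring the all-gene median, 0.05 as reported, was -0.15 for neutrophils against Mac1+ myeloblasts and -0.12 against Mac1- myeloblasts, and without dim genes -0.41 in both, so neutrophil differences hold relative to that shift. Pik3cd reversed with the mean of its probe sets, to 0.41 for neutrophils against Mac1- myeloblasts, 0.30 for neutrophils against Mac1+ myeloblasts and 0.11 for Mac1+ against Mac1- myeloblasts, and with its next brightest probe set, to 1.18, 0.79 and 0.38. The count of members called lower in neutrophils than in Mac1- myeloblasts was then 0 in both. The count lower in neutrophils than in Mac1+ myeloblasts was also 0 with quantile normalization, either offset, only the 2 populations and every probe set, and 0 to 1 when arrays were left out. Leaving out arrays moved Pik3cd between -1.49 and 0.12 and Pik3r1 between -0.05 and 0.22 (Mac1+ against Mac1- myeloblasts), and Pik3ap1 between -0.08 and 0.01 (neutrophils against Mac1+ myeloblasts), which was 0.22 with quantile normalization and 0.11 with the mean of probe sets. Pip5k1b for neutrophils against Mac1- myeloblasts was 0.23 with the mean of probe sets. The call of Pik3c2a for neutrophils against Mac1+ myeloblasts (0.90, adjusted p = 0.0417, limma) was lost under centring (0.70, adjusted p = 0.188). Quantile normalization brought the test of the gap across all 3 populations past the threshold for 4 pairs (adjusted exact permutation p = 0.0375). Their changes in neutrophils less Mac1- myeloblasts, which that test does not single out, were -4.41 for Pik3cd less Pik3ca, -4.67 for Pik3cd less Pik3cb, -0.17 for Pik3cg less Pik3cb and 4.50 for Pik3cg less Pik3cd, and the mean of probe sets turned Pik3cg less Pik3cb to 0.10. The changes with Pik3cd rest on its brightest probe set. With its next brightest, on values as deposited, no pair passed (smallest adjusted exact permutation p = 0.0714). Over all genes, Mac1+ against Mac1- myeloblasts gave 2274 higher and 2235 lower with only these populations, beside 1148 and 1003, and 710 to 2191 higher and 599 to 1987 lower when arrays were left out, the most without neutrophil array 1. The cause of these changes was not tested.

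Deviations of same-numbered arrays from their population means correlated at -0.307 to 0.132, and those of differently numbered arrays at -0.168 to 0.287. The 3 deviations of a population sum to 0 for each gene, so these values cannot show whether arrays were paired. With the replicate number as a block, members called stayed at 6 higher and 1 lower, 3 and 1, and 3 and 0 in the 3 comparisons, and the genes called in Mac1+ against Mac1- myeloblasts came to 868 higher and 795 lower.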
